A study of Mus musculus with 13 samples.

Results

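The stretch of mouse chromosome 1 that holds the 3′ end of the Ugt1a gene cluster, all of Mroh2a and the 5′ end of Trpm8 was examined in whole-genome DNA of 7 libraries. The 10 member genes were Ugt1a1, Ugt1a2, Ugt1a5, Ugt1a6a, Ugt1a6b, Ugt1a7c, Ugt1a9, Ugt1a10, Mroh2a and Trpm8. Variant and copy number calls were taken where the deposited gene annotation names a member, or where they lie in a stretch of 270 kb of mm10 around the 3′ end of the cluster. The region was chosen by its copy number calls and by the number and sharing of its variants in these same libraries. Copy number, depth, variant density and the sharing of its variants are therefore given as description, with no test. The choice took in 1878 of 84383 distinct single nucleotide variants (SNVs) of the series and 409 of 461185 distinct insertions or deletions (INDELs). By library it held 1460 SNV calls in AML, 1506 in AUL, 1482 in B-ALL, 1416 in M-MPAL, 1399 in T-ALL and 1463 in T-MPAL, against 1321 in the empty control.

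The series studies acute leukaemias of C57BL/6 mice whose bone marrow cells carry retroviral N-Myc, a Myc-family regulator of transcription. Each group was 1 library of GFP+ bone marrow cells, labelled 8 to 10 weeks. The leukaemias were B-ALL (B220+GFP+ cells), T-ALL (CD3+), AML (Mac1+Gr1+), AUL (negative for these markers) and the myeloid (M-MPAL) and T-lymphoid (T-MPAL) fractions of a mixed phenotype leukaemia. They are set against GFP+ cells labelled as empty control. B-ALL, T-ALL, AML and AUL came from 2000000 cells, and M-MPAL, T-MPAL and the control GFP+ cells from 1000000 cells. The labels name no matched normal DNA, so inherited and acquired variants cannot be told apart. No DNA call can check the sorted cell types against expressed markers.

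UDP-glucuronosyltransferases of the Ugt1a cluster attach glucuronic acid to bilirubin, steroids, drugs and other small molecules, which makes them soluble for excretion, above all in liver and gut. The cluster has an unusual build: each gene has its own promoter and its own exon 1, and all of them splice to the same set of downstream exons, which encode the part of the enzyme that binds the sugar donor. Ugt1a1 is the bilirubin enzyme. Mroh2a belongs to the maestro heat-like repeat family, and Trpm8 is the cation channel of sensory neurons that responds to cold and menthol. The neighbour Hjurp, which overlaps the 3′ end of Mroh2a in the annotation and lies before Trpm8, encodes the chaperone that deposits the centromeric histone variant CENP-A.

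Every library was called at 10 to 13 copies over chr1:88212001-88311000 (mm10), a length of 99 kb, where the normal number is 2. The left edge was the same base in all 7 libraries, at the 1 kb step of the caller. The right edge was the same in 5 libraries, B-ALL, T-ALL, AML, M-MPAL and T-MPAL. It lay at 88314000 in AUL and at 88339000 in the empty control. Averaged by length over the shared 99 kb, copy number was 11 in AML, 10.4 in AUL, 10.1 in B-ALL, 10.9 in M-MPAL, 11.4 in T-ALL and 11.4 in T-MPAL, against 12 in the empty control. All 6 leukaemias were thus called lower than the empty control. T-ALL and T-MPAL held 13 copies over the leftmost 20 kb and 11 over the rest, with the same step at 88232000. AUL had 12 copies over its leftmost 3 kb and M-MPAL 13 over its leftmost 6 kb, while AML stayed at 11 and the empty control at 12 throughout. B-ALL went the other way, with 10 copies over 86 kb and 11 over the last 13 kb.

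**Figure D1:**
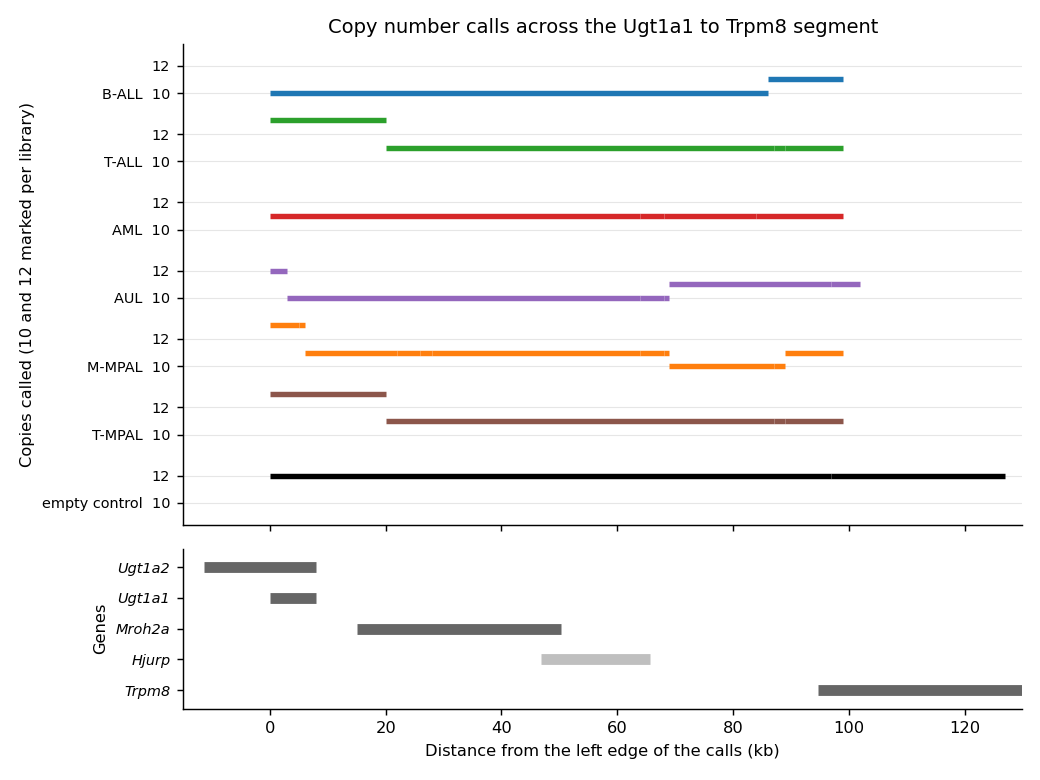
Copy number calls of each library (upper panel, copies against distance from the left edge of the calls in kb, with 10 and 12 copies marked for each library) above the spans of 4 member genes and the neighbour Hjurp (lower panel, lighter grey; Trpm8 runs on past the axis). All libraries start at the same place, 5 of 7 end at 99 kb, and the empty control holds 12 copies throughout.

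The left edge of the calls fell just after the start of Ugt1a1, so that nearly all of its exon 1 and the shared exons lay inside and exon 1 of every other Ugt1a member outside. In RefSeq (GRCm38.p6), Ugt1a1 spans 88211959-88220002, and 99.5% of it lies inside the calls. The other Ugt1a members start farther left, Ugt1a10 at 88055411 and Ugt1a2 at 88200611, and share the same 3′ end. Only their last 8002 bases (6998 for Ugt1a6b) are inside, which is 4.86% of Ugt1a10 and 41.3% of Ugt1a2. Mroh2a (88226991-88262289) is inside over its whole length of 35299 bases. Trpm8 (88306735-88388853) is inside over 4266 of its 82119 bases, or 5.19%. The neighbour Hjurp lies wholly inside, and Dnajb3, a gene nested between the Ugt1a promoters, lies outside.

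SNV depth (total reads at the site, DP) changed at nearly the same places as the copy calls. Left of the calls, 33 distinct SNVs met the rule, 26 of them within 2 kb of the edge. The 7 farther left had a median depth of 31 reads, with 49 as the highest. At 88210277 the depth was 33 to 49 reads in the 7 libraries, and at 88211842, 159 bases before the edge, it was 149 to 225 reads. Between these sites depth rose and fell. Its median over the calling libraries was 84 reads at 88210393, 103 at 88211403 and 38 at 88211695. On the right, depth fell in steps over the last 270 bases of the shared calls: 96 to 129 reads at 88310730, 76 to 90 at 88310759, 59 to 67 at 88310790 and 38 to 56 at 88310821. After that site only 2 SNVs followed, with at most 24 reads. The empty control's longer call therefore had no high-depth variant past that site: it held no SNV call there, and its only INDEL call past the shared end had 21 reads.

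The promoter windows of Mroh2a and Trpm8 lie inside the calls, and that of Ugt1a1 crosses their left edge, with only its last bases inside. Each run below is the RefSeq window (GRCm38.p6) from 250 bases before the gene's start to 50 after it, written 5′ to 3′ on the plus strand, with the bases in capitals where any of the 7 libraries called an SNV. In 25 of 25 cases the base in RefSeq was the reference base of the deposited calls (the neighbour Hjurp included).
Ugt1a1, chr1:88211709-88212008: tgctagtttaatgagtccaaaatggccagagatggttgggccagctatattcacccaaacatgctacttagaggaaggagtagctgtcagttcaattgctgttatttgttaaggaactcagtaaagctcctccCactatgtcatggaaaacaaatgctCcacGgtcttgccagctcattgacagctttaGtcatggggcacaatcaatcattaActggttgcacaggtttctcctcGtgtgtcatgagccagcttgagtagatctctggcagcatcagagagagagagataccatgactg
Mroh2a, chr1:88226770-88227069: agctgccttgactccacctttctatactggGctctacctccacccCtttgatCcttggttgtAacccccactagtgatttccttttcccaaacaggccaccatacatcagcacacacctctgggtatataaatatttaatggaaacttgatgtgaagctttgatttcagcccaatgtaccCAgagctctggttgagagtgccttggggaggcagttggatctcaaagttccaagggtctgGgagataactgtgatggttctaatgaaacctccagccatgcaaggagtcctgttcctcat
Trpm8, chr1:88306485-88306784: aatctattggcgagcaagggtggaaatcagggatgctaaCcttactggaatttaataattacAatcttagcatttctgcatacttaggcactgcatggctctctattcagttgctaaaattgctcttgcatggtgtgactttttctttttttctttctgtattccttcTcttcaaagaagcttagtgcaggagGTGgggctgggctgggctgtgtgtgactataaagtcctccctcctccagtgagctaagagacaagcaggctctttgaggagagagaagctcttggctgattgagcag

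The Ugt1a1 window held 6 SNV positions, the Mroh2a window 7 and the Trpm8 window 6. Those of Ugt1a1 ran from 88211842 to 88211945, all just left of the copy calls. Of 32579 RefSeq promoter windows of the same length outside the segment, 0.731% held any SNV and 7 held 5 or more. The whole segment had 1 SNV per 53.7 bases, so these counts do not set its promoter windows apart from the rest of it. In the tokens that follow, the reference base comes first, the position is counted from 1 at the 5′ end of the window, and the called base comes last. In the Ugt1a1 window, C134T, C159T and G163A were called in all 7 libraries, with 326 alternative reads of 1227, 341 of 1190 and 339 of 1184 over the libraries together. These shares (0.266, 0.287 and 0.286) are close to each other, while G237A, called in 6 libraries, had 789 of 969 reads (0.814). In the Trpm8 window, C40A (0.493), A63C (0.793), T169C (0.351) and T195C (0.781) were called in all 7. In the Mroh2a window, C46T (0.806) and G241T (0.522) were. The promoter windows of Ugt1a10, Ugt1a9, Ugt1a7c, Ugt1a6a, Ugt1a5 and Ugt1a2, all outside the copy calls, held no SNV and no INDEL in any library.

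Over the 99 kb, 1843 distinct SNVs were called, 18.6 per kb or 1 per 53.7 bases, against 0.0321 per kb over the rest of chromosomes 1 to 19 and X. Among 18753 windows of 100 kb with any SNV, the one that starts this segment held the most (1634), ahead of the next (1160) and of the median (2). Mroh2a had 671 of the SNVs, 360 of them in all 7 libraries. Ugt1a1 had 162 (101 in all 7) and Trpm8 90, of which 88 lay in the segment (43 in all 7), and the neighbour Hjurp had 192 (97 in all 7). Of the 1843, 83.6% stood in dbSNP, against 48.2% outside. None lay in an annotated segmental duplication, against 41.3% outside, and 27.0% lay in annotated repeats, against 61.0% outside. Transitions made up 65.9%, against 55.5% outside.

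Depth at these SNVs was high in every library. Inside each library's own calls, the median was 134 reads in AML, 125 in AUL, 128 in B-ALL, 136 in M-MPAL, 139 in T-ALL and 131 in T-MPAL, against 156 in the empty control. The empty control was highest here, although its median at autosomal SNVs called in all 7 libraries outside the region was the lowest, 41 reads, against 46 to 51 in the leukaemias. Scaled to those sites as 2 copies, the segment had 5.70 copies in AML, 5.43 in AUL, 5.57 in B-ALL, 5.91 in M-MPAL, 5.45 in T-ALL and 5.70 in T-MPAL, against 7.61 in the empty control. That scale depends on the sites chosen. As a median over the 7 libraries it was 5.70 copies. It became 10.3 with sites in segmental duplications left out, and 5.40 with those in repeats left out. A reference chosen after seeing the data was the 2640 SNVs called in all 7 libraries outside repeats and segmental duplications. Against it the values were 9.24, 8.93, 9.14, 9.71, 9.27 and 9.36 in the same order of leukaemias and 12.2 in the empty control. On both scales the empty control was above all 6 leukaemias, whose own spread was narrow. Each group is 1 library, so this difference has no replicate check, and genotype, mouse and library preparation cannot be told apart in it.

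The profile along the segment showed where the control stood apart. In windows of 5 kb, scaled to the SNVs outside repeats and segmental duplications, the leukaemias held 10.6 to 12.1 copies over the leftmost 15 kb, which covers Ugt1a1 and the shared Ugt1a exons, and 7.64 to 10.5 over the other windows. The empty control held 14.7, 13.2 and 11.5 copies in those leftmost 3 windows and 9.80 to 14.7 in the others. It exceeded every leukaemia in 19 of 20 windows. In the window from 10 to 15 kb, between the Ugt1a genes and Mroh2a, the control's 11.5 copies lay within the leukaemias' 10.9 to 12.1. The gap was widest from 45 to 50 kb, at the 3′ end of Mroh2a, where the leukaemias had 9.21 to 10.5 and the empty control 14.7. Across the 20 windows, which share the same sites, median depths of any 2 leukaemias had a Pearson correlation of 0.865 to 0.952, and those of the control with a leukaemia 0.401 to 0.703. These are descriptions of 7 libraries.

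**Figure D2:**
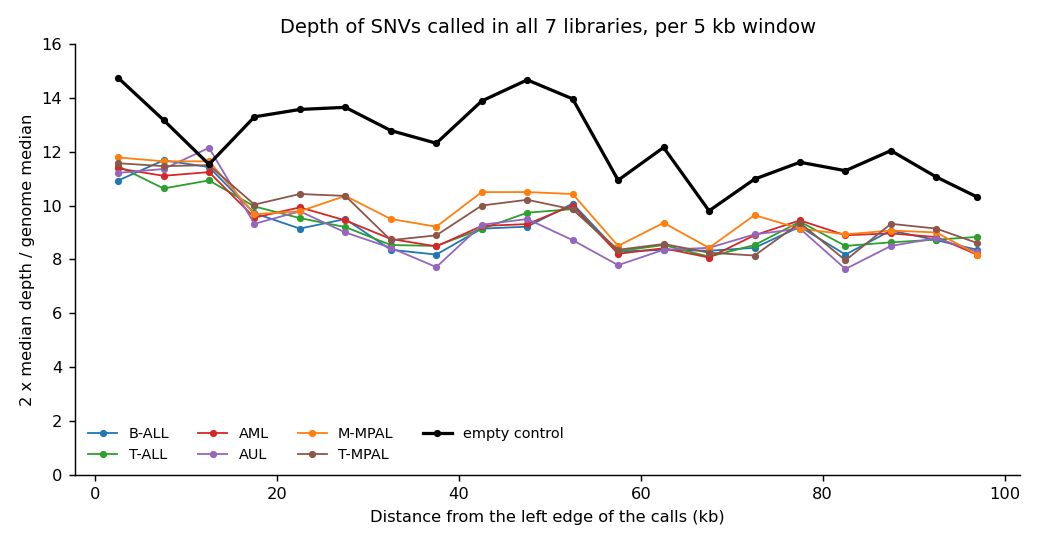
Median depth of SNVs called in all 7 libraries in windows of 5 kb, as 2 times the ratio to the library's median at SNVs outside repeats and segmental duplications (y axis), against distance from the left edge of the calls in kb (x axis). The 6 leukaemias run together and are lower past 15 kb, and the empty control lies above them in 19 of 20 windows.

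Of the 1843 SNVs, 998 were called in all 7 libraries, 54.2% (exact Clopper-Pearson 95% interval 51.8 to 56.4%, for counting error only). Outside the region 25.3% of 82387 were. At the other end, 138 (7.49%) were called in 1 library only, against 41.2% outside, and 707 in 2 to 6 libraries. Without the empty control, 55.8% were called in all 6 leukaemias. INDELs were shared less: 150 of 352 were called in all 7 libraries (42.6%, interval 37.4 to 48.0%), against 1.84% outside, where 97.5% of INDELs lay in repeats, compared with 51.7% in the segment. Since the region was picked partly for this sharing, these shares say nothing further about it.

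**Figure D3:**
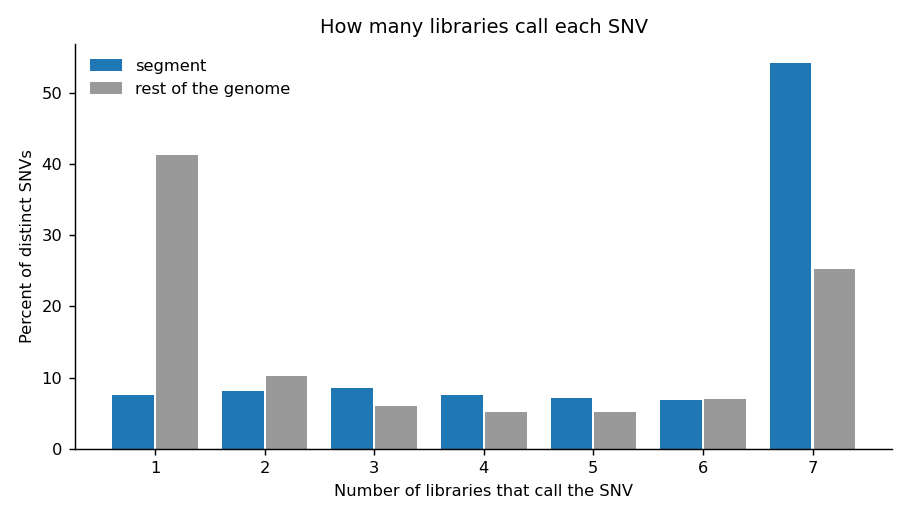
Percent of distinct SNVs (y axis) by the number of libraries that called them (x axis), for the 99 kb segment and for the rest of the genome. In the segment 54.2% were called in all 7 libraries and 7.49% in 1, and outside it 25.3% and 41.2%.

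The share of alternative reads (DV/DP) was intermediate at nearly all sites. AML had a median of 0.571, AUL 0.548, B-ALL 0.581, M-MPAL 0.612, T-ALL 0.583 and T-MPAL 0.574, against 0.617 in the empty control, each over 1297 to 1484 SNVs. The control's median was the highest and that of M-MPAL the next, with no replicate check. Calls of 2 alternative alleles (1/1) numbered 11 to 32 in the leukaemias and 41 in the control, beside 1254 to 1466 calls of 1 alternative and 1 reference allele.

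Pooled over libraries, the 998 SNVs called everywhere fell into 2 crowded ranges of alternative share. The fullest bin of width 0.02 ran from 0.8 to 0.82 and held 168 SNVs, and the fullest bin under 0.4 ran from 0.3 to 0.32 and held 57. Above 0.7 lay 510 SNVs (51.1%, median 0.803), at 0.4 or less 272 (27.3%, median 0.304), and between them 216 (21.6%). The highest pooled share was 0.881, so that no SNV called in all 7 libraries had lost its reference reads. The bounds 0.7 and 0.4 were set after seeing this distribution. Among SNVs called in fewer libraries, 466 of 845 (55.1%) had a share under 0.25, against 44 of 998 (4.41%) of those called in all 7.

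**Figure D4:**
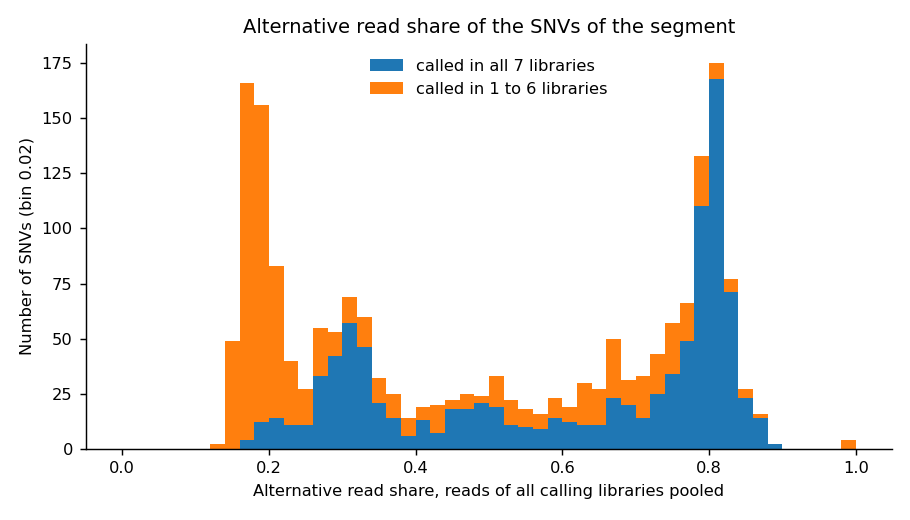
Number of SNVs of the segment (y axis) by alternative read share, reads of all calling libraries pooled, in bins of 0.02 (x axis), stacked for SNVs called in all 7 libraries and in 1 to 6. SNVs called in all 7 have peaks at 0.8 to 0.82 and 0.3 to 0.32, and SNVs called in some libraries crowd under 0.25.

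In the class above 0.7, the read-weighted alternative share was 0.806 in AML, 0.797 in AUL, 0.796 in B-ALL, 0.805 in M-MPAL, 0.800 in T-ALL and 0.800 in T-MPAL, against 0.810 in the empty control. The rest of the reads carried the reference base. Multiplied by the called copies of the same library, the reference reads correspond to 2.13 copies in AML, 2.11 in AUL, 2.07 in B-ALL, 2.13 in M-MPAL, 2.28 in T-ALL and 2.28 in T-MPAL, against 2.28 in the empty control. With copies from depth (SNVs outside repeats and segmental duplications) the same product was 1.79 to 1.90 in the leukaemias and 2.32 in the control. The class at 0.4 or less had shares of 0.288 to 0.295 in the leukaemias and 0.298 in the control, or 2.92 to 3.33 and 3.57 alternative copies by the called copy number. These products are arithmetic on counts and were not tested. The lowest share of any call was 0.128, whereas 1 copy in 11 would give 0.0909, which lies below every share called here.

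Over the 998 SNVs, the chi-square of alternative against other reads, summed over sites and divided by its degrees of freedom, was 1.03, where counting error alone gives about 1. It was 1.096 in the class above 0.7 (510 SNVs) and 0.967 in the others (488 SNVs). These SNVs were taken because every library called them, so sites whose share was too low to call in 1 library are left out. The ratio therefore cannot show that shares were equal at all sites. Between any 2 of the 7 libraries (21 pairs), the mean absolute difference in share was 0.0438 to 0.0488. The control's share minus the leukaemias' mean, by window of 5 kb, ran between -0.00795 and 0.0389 and was above 0 in 17 of 20 windows. Its Pearson correlation with the control's depth over the leukaemias' depth was 0.265 over 20 windows.

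SNVs called in 1 library numbered 19 in AML (exact Poisson 95% interval 11.4 to 29.7), 28 in AUL (18.6 to 40.5), 25 in B-ALL (16.2 to 36.9), 18 in M-MPAL (10.7 to 28.4), 12 in T-ALL (6.20 to 20.96) and 29 in T-MPAL (19.4 to 41.6), against 7 in the empty control (2.81 to 14.4). The control had the fewest. The intervals cover the counting error of each library and do not compare groups. As a share of each library's calls in the segment this was 0.873 to 2.01% in the leukaemias and 0.540% in the control. Outside the region the same kind of call made up 5.79 to 16.2% in the leukaemias and 6.28% in the control. Of the 138, 80 had a share under 0.25 and their median quality was 55, while SNVs called in all 7 had a median quality of 220. With a quality of at least 100, 43 were left.

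Sites missing from 1 library showed the reverse count. SNVs called in exactly 6 libraries made up 6.89% in the segment and 6.98% outside the region, nearly the same share. In all 6 leukaemias and not the control 26 SNVs were called, with shares of 0.161 to 0.861 and a median of 0.423. M-MPAL alone lacked 27, AML 18, B-ALL 15, T-ALL 14, T-MPAL 14 and AUL 13, so M-MPAL and the control lacked the most. Each of the 21 pairs of libraries shared SNVs called in no other, 1 to 14 a pair with a median of 7. AML and AUL shared the most (14), B-ALL and AML shared 13, and the M-MPAL and T-MPAL fractions 11. SNVs called in exactly 2 libraries made up 8.14% in the segment and 10.3% outside. No difference between pairs was tested.

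High-share SNVs that some libraries lacked are set beside those in all 7 as a description. Among SNVs with a share of 0.5 or more, 252 were called in some libraries and 650 in all 7. Those called in some libraries had a median depth of 99 reads and a median mapping quality of 32, against 136 reads and 37 for those in all 7. Another SNV lay within 10 bases of 108 of the 252 (42.9%), against 174 of the 650 (26.8%). Depth at a site without a call is not given in the files, so whether the allele was absent there was not tested.

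Exonic SNVs of the segment, taken as 1 class, had a lower median alternative share than intronic ones in every library. In the class of coding exons, splice sites and untranslated regions, the median share was 0.303 in AML, 0.289 in AUL, 0.290 in B-ALL, 0.325 in M-MPAL, 0.307 in T-ALL and 0.322 in T-MPAL, against 0.351 in the empty control. For intronic SNVs it was 0.606 in AML, 0.564 in AUL, 0.590 in B-ALL, 0.630 in M-MPAL, 0.615 in T-ALL and 0.593 in T-MPAL, and 0.637 in the control. The exonic minus intronic difference was thus -0.308 to -0.271 in the leukaemias and -0.286 in the control. The libraries share the same sites, so that 7 equal signs are not 7 independent observations. Median depth was 147 reads at 274 exonic and 134 at 808 intronic sites. Share also varied with place: by window of 5 kb, the pooled median ran from 0.191 to 0.679. The windows from 40 to 55 kb, at the 3′ ends of Mroh2a and Hjurp, had 0.327, 0.191 and 0.251. Whether place or annotation goes with the exonic difference was not tested.

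At 0.4 or less lay 183 of 274 exonic SNVs (66.8%), against 340 of 808 intronic (42.1%) and 235 of 620 intergenic SNVs (37.9%). Above 0.7 lay 60 exonic (21.9%), against 284 intronic (35.1%) and 242 intergenic SNVs (39.0%). Within Mroh2a, 117 exonic SNVs had a pooled median of 0.314 and 523 intronic SNVs 0.524. Within the Ugt1a genes the 2 sets were closer, 0.268 over 70 and 0.286 over 92 SNVs. In the neighbour Hjurp they were 0.234 and 0.607. Missense SNVs (94) had a median of 0.273 (order-statistic 95% interval 0.25 to 0.306), synonymous SNVs (71) 0.352 (0.3 to 0.671) and untranslated SNVs (100) 0.220 (0.193 to 0.248). By library, synonymous medians ran from 0.360 in AML to 0.646 in T-MPAL, the latter above the intronic 0.593 of T-MPAL. Among SNVs called in all 7 libraries, synonymous ones had a median of 0.674 and intronic ones 0.704. Above 0.7 there were 15 missense and 24 synonymous SNVs, a ratio of 0.625, and at 0.4 or less 65 and 36, a ratio of 1.81. Over the whole segment the ratio was 1.32, and outside the region it was 1.45. The class bounds were set after seeing the shares, and no difference between these ratios was tested.

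**Figure D5:**
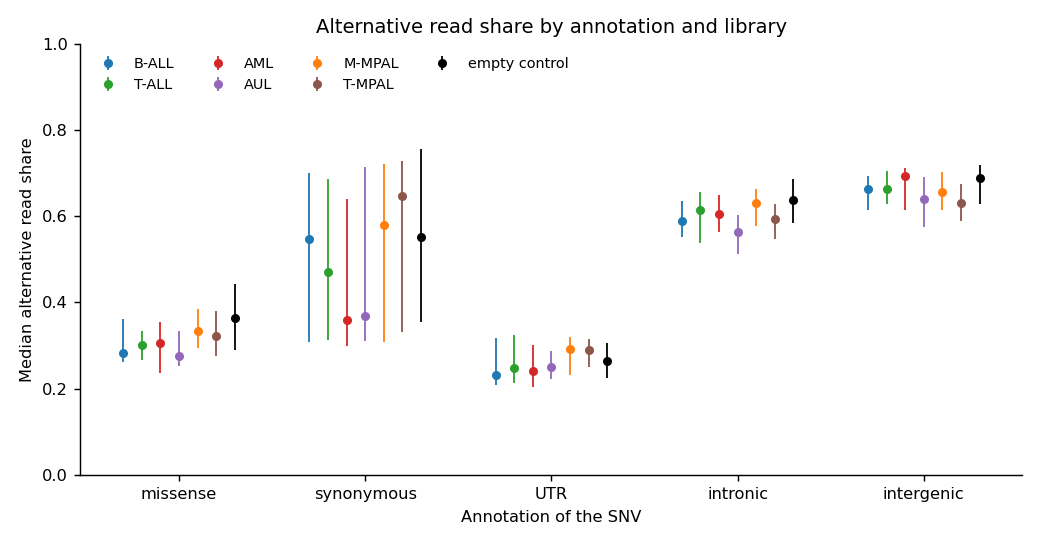
Median alternative read share (y axis) of the SNVs of the segment by deposited annotation (x axis), 1 point per library, with order-statistic 95% intervals of the median over sites. Missense and untranslated SNVs lie at or below 0.364 in every library, and intronic and intergenic ones at or above 0.564. Synonymous SNVs run from 0.360 to 0.646.

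By the deposited annotation, 84 SNVs and 4 INDELs altered the protein or a splice site of a member, 45 and 3 of them in all 7 libraries. Trpm8 had none. All those of the Ugt1a cluster lay in exon 1 of Ugt1a1 or in the shared exons, and no exon 1 of another Ugt1a member held an exonic SNV. In exon 1 of Ugt1a1, which encodes the part that binds the acceptor such as bilirubin, R31K, G47V, S106P and Q247K had pooled shares of 0.822 to 0.835 in all 7 libraries. R31K, at 88212093, had a share of 0.851 in AML, 0.823 in AUL, 0.882 in B-ALL, 0.837 in M-MPAL, 0.817 in T-ALL and 0.804 in T-MPAL, against 0.835 in the empty control. H28L, 9 bases to its left at 88212084, was in the low class instead, at 0.307 in AML, 0.289 in AUL, 0.284 in B-ALL, 0.297 in M-MPAL, 0.25 in T-ALL and 0.192 in T-MPAL, against 0.278 in the control. At these 2 sites the control lay within the leukaemias' range, while at Q247K its 0.863 was the highest, with 0.791 to 0.857 in the leukaemias.

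The shared exons, which every Ugt1a enzyme uses, held 10 altering SNVs in all 7 libraries (numbered here as in Ugt1a1). A splice site SNV at 88215884 (pooled share 0.822), P389L (0.709) and R444S (0.807) were above 0.7. R477C (0.411) was between, at 0.521 in AML and 0.360 to 0.406 in the other leukaemias, against 0.444 in the control. R405H, R409P, H475L, Y488F, H489Q and G515D ran from 0.255 to 0.277. The last 4 of these lie in exon 5 and had 321 of 1197, 328 of 1225, 329 of 1230 and 337 of 1216 alternative reads. An in-frame deletion in exon 4, at 88216158, was called in all 7 with 0.220 to 0.327 of reads, and a frameshift of exon 1 (M124fs) in 2 libraries at 0.269. Whether neighbouring variants sit on the same copies was not tested, since the files hold no reads.

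Mroh2a had 30 altering SNVs and 2 INDELs in all 7 libraries. R213C, R398H, A575V, V853A, M881L, T921A and C1071F and a splice site SNV at 88249700 were above 0.7 (0.725 to 0.816). E172K, I416M, D553A, L971F and E1110D lay between 0.417 and 0.557. G309D, V315I, C370Y, R481L, G587R, R684M, R684S, R767Q, M820I, A829S, S913F, E1354K, A1444V, A1468T and A1665V and a splice site SNV at 88255539 lay at 0.183 to 0.349. R684M and R684S are adjacent bases of 1 codon, with 288 of 1023 and 303 of 1021 reads.

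Mroh2a was also the member with stop codons. Q1437X, in exon 37 at 88256705, was called in all 7 libraries with 357 of 1009 reads (0.354, exact 95% interval 0.324 to 0.384). Its share was 0.388 in AML, 0.333 in AUL, 0.256 in B-ALL, 0.435 in M-MPAL, 0.307 in T-ALL and 0.352 in T-MPAL, against 0.383 in the empty control, so the control lay within the leukaemias' range. Q357X was called in 5 libraries (0.170), R445X in 4 (0.154) and W657X in T-ALL alone. Frameshifts were called in all 7 libraries as P191fs, in exon 6, with 0.164 of reads, and V1367fs, in exon 35, with 0.310. None of these disrupting variants was in the class above 0.7. Of all exonic SNVs of the segment, 39 of 169 (23.1%) were. The lack of one among so few variants is therefore not read as a result.

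Of the 84 altering SNVs of members, 10 were called in 1 library only, and each had a share of 0.284 or less. None was in the empty control, which held only 7 of the segment's 138 SNVs called in 1 library. Its lack of altering ones is therefore near its share of all such SNVs. They were Ugt1a1 L151M in M-MPAL (33 of 155 reads), F155S and H365N in AML (37 of 136 and 25 of 146) and P478L in T-ALL (22 of 158). In Mroh2a they were V146M, G512S and L1292I in B-ALL (17 of 89, 32 of 160 and 22 of 127), Q357H and L949M in T-MPAL (28 of 144 and 23 of 81) and W657X in T-ALL (25 of 94). Their qualities were 21.7 to 92.0, and 8 of the 10 stood in dbSNP. Of the synonymous SNVs of members, 34 were called in all 7 libraries. Those with the most alternative reads were V305V of the shared Ugt1a exons (0.851) and V1271V and L1664L of Mroh2a (0.846 and 0.810). Ranking by alternative reads favours high shares.

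Among 22 autosomal regions called at 5 or more copies in the 6 complete copy number tables, this one was the longest and had the most SNVs per kb. The regions closest in length were chr2:181929001-182011000 (82 kb, 25 to 35 copies, annotated Gm14496), with 9 SNVs and none in all 7 libraries, and chr4:121975001-122037000 (62 kb, 6 copies, no annotated gene), with 24 SNVs, 9 of them in all 7. The 2 next, both 32 kb without an annotated gene, were chr4:3050001-3082000 with 213 SNVs (167 in all 7) and chr17:3005001-3037000 with 21 (6 in all 7). Shorter regions came nearer in density, named here after their values were seen: chr10:57434001-57447000 (13 kb, 6 to 8 copies) had 16.5 SNVs per kb, 46.5% of them in all 7 libraries, and chr16:3253001-3284000 (31 kb, 9 to 11 copies) had 13.1 per kb, 51.4% of them in all 7. In sharing, the regions lay on both sides of the 54.2% of this segment. The share in all 7 was 84.9% in chr11:3184001-3200000, 78.4% in chr4:3050001-3082000 and 3.70% in chr17:23511001-23520000.

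Related genes elsewhere held few variants beside the segment. No share over all genes is set beside these counts, so whether the families differ from other genes was not tested. Of 13 Ugt2, Ugt3 and Ugt8 genes, enzymes of the same superfamily, 6 had an SNV, at most 3 each, and none a protein-altering one. The same was true of the 7 other Trpm channel genes (3 with an SNV, at most 12, in Trpm3) and of 9 other Mroh genes (5 with an SNV, 1 each). Ugt3a1 was the only gene of these 3 lists in a call of more than 3 copies, at up to 7. Of 10 genes flanking or within the region, Hjurp had 192 SNVs, and Dgkd, Spp2, Neu2 and Inpp5d 1 each and Ngef 5. Usp40, Dnajb3, Sag and Atg16l1 had none.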

How the data were processed

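Whole-genome DNA of 7 libraries, 1 per group, was analysed, and 6 samples on viral integration sites are not analysed here. Per the labels' protocols, 350 bp fragments gave 150 bp read pairs, with 30x planned. The submitters' processing notes name BWA and mm10. Per the file headers and names, samtools gave the SNVs and INDELs, FREEC the copy number and ANNOVAR the annotation, dbSNP entries included. Versions and filters are not given in the sources. The authors deposited for each variant a Phred-scaled quality score (at least 20.0), the read depth DP and the alternative reads DV. Copy number was deposited as whole copies in 1 kb steps with a genotype confidence score, which was not used. The AUL copy table broke off after 17 whole lines, all of chromosome 1 included.

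The members, lists and alternatives were chosen with earlier results of these data known. Members were found by gene name or position. Depth in copies is 2 times the median DP of the segment over the median at autosomal SNVs called in all 7 libraries outside it. A private SNV was called in 1 library, with 10 or more reads, and in none of the other 6. Named sites were all protein-altering sites of members called in all 7 libraries or in 1 only (10 or more reads). Synonymous sites named were the 3 with the most alternative reads among those called in all 7. Like regions were autosomal, at 5 or more copies in all complete tables and closest in length. Intervals are 95%, exact Clopper-Pearson, exact Poisson or order-statistic, and take in counting error alone: without molecular identifiers, reads can be copies of 1 molecule. With 1 library per group, groups were not tested. Python 3.11.15, pandas 2.3.3, numpy 2.4.6, scipy 1.17.1 and matplotlib 3.10.9 were used, and the interval and chi-square functions were tested on simulated data.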

Additional observations from a re-analysis of the deposited data

How the results depend on the processing

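The values below are medians over the 7 libraries, except the share called in all 7 libraries and the number of SNVs in 1 library. Only the exonic minus intronic difference could change sign, since the other results cannot fall below 0. It stayed negative in its 10 alternatives. Over all results, 19 alternatives moved a value beyond the limits set for it and 28 did not. The copy number of 11 became 5.70 when computed from SNV depth and 9.27 with reference SNVs outside repeats and segmental duplications (added after seeing the data). The depth of 5.70 copies became 5.25 with at least 20 reads, 5.54 with a quality of at least 100, 5.40 without repeats and 10.3 without segmental duplications, which changes the reference sites. With other reference sites it was 10.5 (all SNVs of a library outside repeats and segmental duplications), 9.27 (the same, called in all 7 libraries) and 3.68 (chromosome 1), and with INDELs 9.37. The median alternative share of 0.581 became 0.691 with a quality of at least 100, 0.617 for INDELs and 0.711 for SNVs called in all 7 libraries. The share called in all 7, 54.2%, became 58.2% with a quality of at least 100 and 61.0% counting 6 or more libraries. The 138 SNVs in 1 library became 43 with a quality of at least 100. The exonic minus intronic difference of -0.299 became -0.227 with a quality of at least 100, -0.238 in Mroh2a alone and -0.0597 in the Ugt1a genes, where its interval (-0.234 to 0.144) includes 0. Other causes of these moves were not tested. No paired analysis was possible because each group holds 1 library and no result comes from a test. Depth limits the sites: shares below 0.128 were not called, and a site without a call has no depth in the files.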
